A study of Mus musculus with 32 samples.

Results

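The genes described here encode the proteins of the cytosolic ribosome in cultured mouse hippocampal neurons. They were chosen by name and annotation: a symbol beginning with Rpl, Rps or Rplp and a digit, or Rpsa, with names containing -ps and names beginning Rps6k left out, and a protein-coding biotype. Of 51267 features in the total RNA table, 383 names matched, 280 of them were -ps names, 10 were Rps6k names, 7 were other pseudogene rows, and 86 genes remained, 52 named for the large and 34 for the small subunit. One of the 86, Rps19bp1, encodes a regulator of the deacetylase SIRT1 that binds Rps19 and is no ribosomal protein itself, and it is kept because the rule takes it. The ribosome components Fau and Rack1 have other names and are given separately.

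The study treated neurons cultured from the hippocampi of newborn (P0) mice for 30 minutes at 16 days in vitro. Forskolin (FSK, 50 µM), which activates adenylyl cyclase and raises cAMP, was given to 6 samples, DHPG (30 µM), which activates the metabotropic glutamate receptors mGluR1 and mGluR5 (group I), to 6, and DMSO, the vehicle, in equal volume to 4. No strain, sex or genotype is named in the labels, and they do not say whether replicates of a treatment are separate cultures, so p-values measure the spread between these samples, which may be technical. Pan-neuronal marker genes were detected in all 16 libraries, none at 0, with a summed level of 2518 to 4094 CPM (counts scaled to each library's size and composition) in FSK, 3677 to 4275 CPM in DHPG and 3290 to 4354 CPM in DMSO libraries. Astrocyte markers were also detected, at 2536 to 6731 CPM, none at 0.

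Each ribosome carries a single copy of nearly all of these proteins, and their genes are among the most highly expressed of a cell. Their mRNAs begin with a terminal oligopyrimidine (TOP) tract, a C followed by a run of C and T, through which mTORC1 and LARP1 set how much of them is translated. In neurons ribosomal protein mRNAs are also carried into axons and dendrites, and both cAMP and group I mGluR signalling are known to act on translation. A 30-minute treatment measured in total RNA reports on the amount of these mRNAs and not on their translation.

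Promoter sequences are shown for Rpl22l1, which differed with FSK against DMSO, and for Rpsa and Rpl13, which did so only in some fits. They are also shown for the 2 members with the largest difference between library sets described below (Rpl39 and Rps26). They run from 100 bases before to 30 bases after the transcription start annotated by RefSeq (build GRCm38.p6), on the gene's strand, and positions count from +1 at the start. Capitals mark TGACG or CGTCA, the half-site of the cAMP response element bound by CREB, and the longest run of C and T from 20 bases before to 30 bases after the start, where a TOP tract would lie (both runs, where 2 are of equal length). The coordinates are chr3:28805408-28805537 on the plus strand for Rpl22l1, chr9:120127666-120127795 on the plus strand for Rpsa, chr8:123102250-123102379 on the plus strand for Rpl13, chrX:37085193-37085322 on the minus strand for Rpl39 and chr10:128626477-128626606 on the minus strand for Rps26.
Rpl22l1: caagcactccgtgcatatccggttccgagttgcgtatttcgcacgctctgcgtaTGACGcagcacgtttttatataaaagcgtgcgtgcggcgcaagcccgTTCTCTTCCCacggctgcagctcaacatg
Rpsa: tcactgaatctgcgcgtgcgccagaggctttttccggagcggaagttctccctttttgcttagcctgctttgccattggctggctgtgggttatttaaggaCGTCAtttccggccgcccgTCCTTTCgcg
Rpl13: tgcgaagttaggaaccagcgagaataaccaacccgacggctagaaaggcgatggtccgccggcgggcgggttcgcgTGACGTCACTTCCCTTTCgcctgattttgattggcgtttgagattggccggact
Rpl39: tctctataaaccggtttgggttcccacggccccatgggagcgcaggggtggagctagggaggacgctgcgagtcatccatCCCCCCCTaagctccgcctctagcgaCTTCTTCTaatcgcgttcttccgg
Rps26: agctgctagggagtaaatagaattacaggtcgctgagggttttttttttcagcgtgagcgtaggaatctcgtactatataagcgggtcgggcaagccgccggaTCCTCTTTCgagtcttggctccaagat

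In Rpl22l1 a half-site begins at -46 and a pyrimidine run of 10 bases at +2. Rpsa has a half-site at +2 and a run of 7 bases at +21. Rpl13 holds the full palindrome TGACGTCA, read as half-sites at -24 and -21, followed by a run of 10 bases at -16. Rpl39 has no half-site in the window and 2 runs of 8 bases, at -20, where the run also goes on before the span searched, and at +7. Rps26 has a run of 9 bases at +4 with its half-site at -182, outside the stretch shown. RefSeq windows of 300 bases (250 before and 50 after the start) were found for 66 of the 86 members, 78 windows in all. A half-site on either strand was present in 42.31% of the members' windows and in 20.81% of all 32851 windows, and these matches include those inside the full palindrome. The full TGACGTCA was present in 6.41% of the members' windows (Rpl13, Rpl18, Rpl26, Rpl27a and Rps9) and 1.79% of all. A run of at least 8 pyrimidines on the gene's strand around the start was found in 44.87% of the members' windows and 18.95% of all, and CCGGAA or TTCCGG, the core bound by ETS factors, in 47.44% and 14.9%. TATAAA or TTTATA was found in 8.97% of the members' windows and 13.62% of all. These are matches of letters, not measured binding.

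The libraries held 20677117 to 59958600 counts and differed widely in mitochondrial rRNA. In 7 libraries (FSK 4 to 6, DHPG 6 and DMSO 2 to 4) the 2 mitochondrial rRNAs took 10.8 to 27.7% of the counts, and in the other 9 (FSK 1 to 3, DHPG 1 to 5 and DMSO 1) 1.47 to 2.92%. These sets were defined here from the data with a limit of 5%, and the labels do not describe them. They are called the high set and the low set below. The high set also held more counts per library, so share and depth cannot be told apart, and treatment and set overlap only in part.

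**Figure D1:**
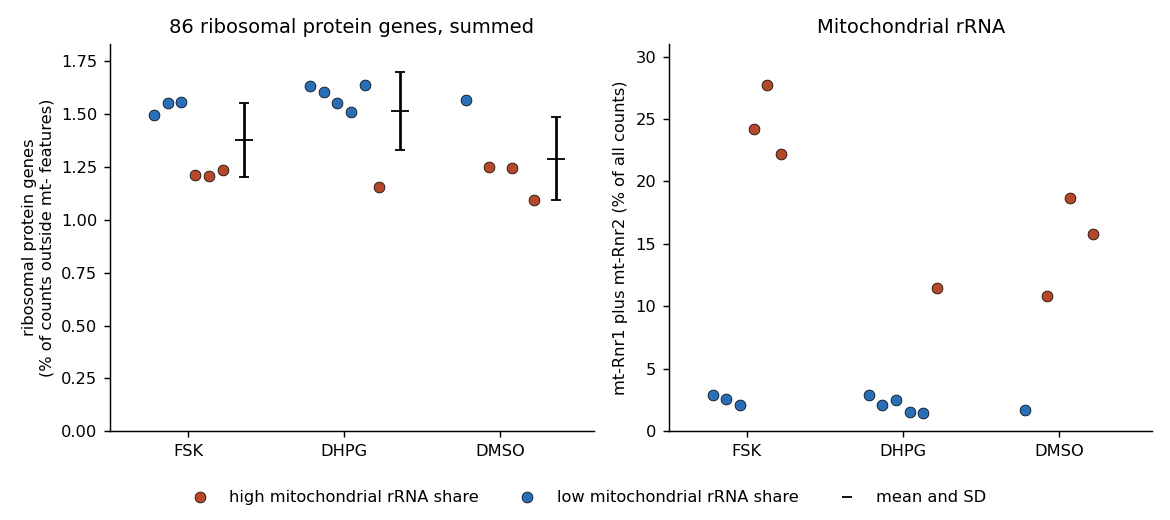
The 86 ribosomal protein genes as a percentage of the counts outside mitochondrially encoded features (left) and the 2 mitochondrial rRNAs as a percentage of all counts (right), with 1 point per library, coloured by set; bars on the left show mean and SD per treatment. All 7 libraries of the high set lie at 1.10 to 1.25% on the left, below all 9 of the low set at 1.50 to 1.64%.

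The summed share of the 86 genes followed the library set. After mitochondrially encoded features were taken out, the members made up 1.20 ± 0.056% of the counts in the high set (SD, n = 7) and 1.57 ± 0.049% in the low set (n = 9). The ranges did not overlap. Of all counts the members took 0.855 to 1.11% in the high set and 1.43 to 1.60% in the low set. By treatment the share outside mitochondrial features was 1.38 ± 0.18% in FSK (n = 6), 1.52 ± 0.18% in DHPG (n = 6) and 1.29 ± 0.20% in DMSO libraries (n = 4), and all 3 ranges overlapped. Within the high set FSK had 1.22 ± 0.015% (n = 3) and DMSO 1.20 ± 0.088% (n = 3), with DHPG 6 at 1.16%. Within the low set FSK had 1.54 ± 0.035% (n = 3) and DHPG 1.59 ± 0.054% (n = 5), with DMSO 1 at 1.57%.

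Between the sets, 68 of the 83 members that passed the filter on low counts were lower in the high set, and 0 were higher (edgeR quasi-likelihood test with treatment in the model, Benjamini-Hochberg adjusted p under 0.05). Of all 17173 features tested, 15.6% were lower and 18.9% higher. The median log2 fold change, high over low, was -0.44 over the members and 0.00 over all features. At an unadjusted p under 0.05 there were 71 lower and 0 higher members, against 21.3% and 23.9% of all features, and the DESeq2 Wald test gave 70 lower and 0 higher, against 20.1% and 19.5%. With library totals in place of TMM scaling, which moved the median of all features to -0.20, 78 members were lower and 0 higher. For 43 of 83 members every library of the high set lay below every library of the low set and for 0 above, against 3.59% of all features below and 6.04% above. By subunit, 40 of 49 large-subunit members were lower (median -0.46) and 28 of 34 small-subunit members (median -0.44).

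The largest differences were in genes of both subunits. Rpl39, which lines the exit tunnel of the large subunit, ranged from 47.2 to 89.2 CPM (median 62.5) in the high set and from 122 to 160 CPM (median 144) in the low set, with no overlap. Its log2 fold change was -0.996 ± 0.13 (SE, edgeR adjusted p = 6.95e-05). Rps26, which contacts the mRNA as it leaves the small subunit, ranged from 41.2 to 83.2 CPM (median 62.5) in the high set and from 107 to 130 CPM (median 119) in the low set, a log2 fold change of -0.97 ± 0.13 (adjusted p = 9.5e-05). Rpl37 lay between 49.9 and 64.2 CPM in the high set and between 90.7 and 102 CPM in the low set (-0.92 ± 0.064, adjusted p = 2.8e-07, the smallest p among the members). Rpl38, which acts in the translation of Hox mRNAs in the mouse embryo, followed at -0.90 ± 0.086, Rps29 at -0.86 ± 0.094 and Rps27a, made as a fusion with ubiquitin, at -0.84 ± 0.081. In each of these 6 genes the 2 sets did not overlap.

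Of the 8 members of highest CPM (a level that is not per transcript length) 7 were lower in the high set. The exception was the first of them, Rpsa, a small-subunit protein also known as the laminin receptor, which was not called (-0.20 ± 0.11, adjusted p = 0.17). Rplp0, the base of the ribosomal stalk, had a log2 fold change of -0.48 ± 0.096, and its partners Rplp1 and Rplp2 had -0.64 ± 0.17 and -0.60 ± 0.15 (all 3 called). Rpl41 (-0.43 ± 0.083), Rps4x (-0.32 ± 0.083), Rpl4 (-0.26 ± 0.066), Rpl7 (-0.31 ± 0.077), Rpl19 (-0.44 ± 0.071) and Rpl13a (-0.37 ± 0.083) were called as well. Rps6, the S6 kinase substrate used as a readout of mTORC1, was at -0.43 ± 0.073 (adjusted p = 0.00044). Rpl11, which with Rpl5 binds Mdm2 when ribosome assembly fails, was at -0.72 ± 0.070 (adjusted p = 4.7e-06), while Rpl5 itself was not called (-0.16 ± 0.12, adjusted p = 0.32). When the 83 tested members are split by mean CPM, 17 of the 28 with the lowest, 26 of the 27 with middle and 25 of the 28 with the highest values were lower. The remaining 15 of the 83 did not pass the limit, and 3 of these had positive values, Rps28 (0.11 ± 0.13), Rps27 (0.11 ± 0.31) and Rpl10a (0.06 ± 0.082). With the counts of pseudogene rows added, Rpl10a changed sign to -0.15, while Rps28 and Rps27 stayed at 0.11. The steadiest member over all 16 libraries was Rpl7l1, a paralog of Rpl7 found in ribosome assembly, at 41.6 to 50.5 CPM, with a difference of -0.02 ± 0.060 between the sets.

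**Figure D2:**
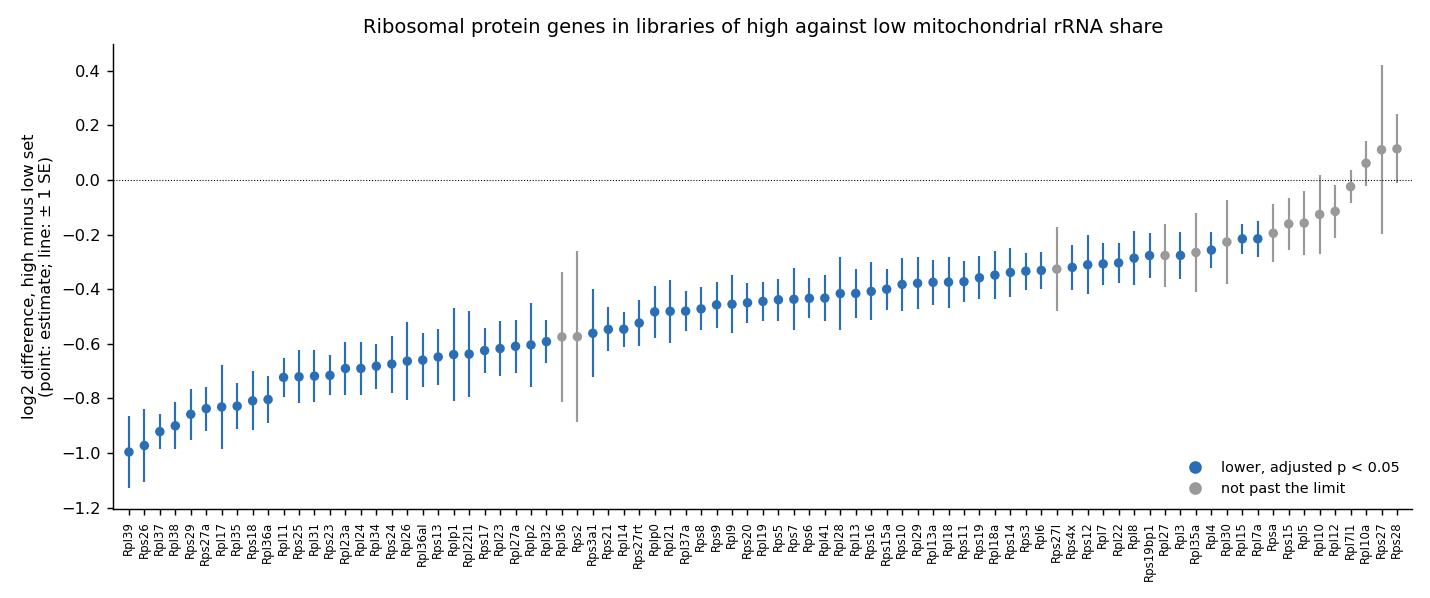
Log2 difference between the high and the low mitochondrial rRNA set for each of the 83 tested members, with treatment in the model; the point is the estimate and the line ± 1 SE. The 68 blue members are lower in the high set, from Rpl39 at -0.996, and Rps28, Rps27 and Rpl10a at the right are the 3 above 0.

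Other values moved with the set as well. Astrocyte markers (8 genes) summed to 4505 to 6731 CPM in the high set and 2536 to 4177 CPM in the low set, and choroid plexus and ependymal markers (5 genes) to 128 to 455 CPM and 38.7 to 105 CPM. Fibroblast, mural and meningeal markers (7 genes) summed to 75.7 to 247 CPM in the high set and 43.2 to 65.9 CPM in the low set. The sets did not overlap for any of these 3 lists, and none of their genes was at 0 in any library. Microglial markers (10 genes) summed to 152 CPM in FSK 4 and 279 CPM in FSK 5, against 5.72 to 30.9 CPM in the other libraries, with none at 0. Pan-neuronal markers (8 genes) summed to 2518 to 4354 CPM in the high set and 3677 to 4275 CPM in the low set, which overlap, but 3 of the 8 genes were lower in the high set and 0 higher (edgeR, median -0.27), among them Stmn2 at -0.85 ± 0.17 and Nefl at -0.72 ± 0.11. Excitatory neuron markers (10 genes) summed to 876 to 1722 CPM (median 1531) in the high set and 1079 to 1358 CPM (median 1206) in the low set. Inhibitory neuron markers (8 genes) summed to 268 to 600 CPM (median 596) and 521 to 652 CPM (median 564). Both lists overlapped between the sets, with the higher median in the high set. The part of cell composition, depth and RNA quality in the members' difference was not tested. In bulk RNA, fewer cells of a type and less of an RNA per cell cannot be told apart. Without FSK 4 and FSK 5, 62 of 83 members were lower and 61 of these were among the 68. Of all features 2252 were higher and 1898 lower in that fit.

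With FSK against DMSO, 1 of the 83 members was higher and 0 were lower (edgeR, adjusted p under 0.05), where 0.349% of all features were higher and 0.46% lower. The median log2 fold change was 0.06 over the members and 0.02 over all features. At an unadjusted p under 0.05 there were 2 higher and 2 lower members, against 10.9% and 10.4% of all features, and DESeq2 gave 1 higher and 1 lower, against 3.98% and 3.75%. With the library set as a term the members' median changed sign to -0.06, with 53 of 83 negative, while that of all features was 0.03. In that fit 4 members were higher and 21 lower at an unadjusted p under 0.05, against 16.2% and 16.8% of all features. The member that rose was Rpl22l1, the paralog of Rpl22. It had 36.2 to 49.4 CPM in the 6 FSK libraries (median 43.5) and 26.6, 11.2, 12.6 and 11.6 CPM in DMSO 1 to 4. The 6 FSK values all exceeded the 4 DMSO values, and DMSO 1, the DMSO library of the low set, lay apart from the other 3. The log2 fold change was 1.50 ± 0.26 (adjusted p = 0.021).

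Rpl22l1 was then read within the library sets. In the high set alone FSK 4 to 6 had 45.7, 36.2 and 41.3 CPM, against 11.2, 12.6 and 11.6 CPM in DMSO 2 to 4, a log2 fold change of 1.79 ± 0.14 (edgeR adjusted p = 0.018). In the low set FSK 1 to 3 had 49.4, 48.8 and 39.8 CPM and the single DMSO library 26.6 CPM. With the set as a term the change was 1.43 ± 0.18 (adjusted p = 0.00073). With FSK 4 and FSK 5 left out, since their microglial markers were raised, it was 1.54 ± 0.29 (adjusted p = 0.047). Leaving out DMSO 2, DMSO 3 or DMSO 4 took the adjusted p to 0.091, 0.12 and 0.058, with log2 fold changes of 1.37, 1.41 and 1.38. Of all features 21, 11 and 33 were higher and 10, 1 and 14 lower in these fits, against 60 and 79 with all libraries.

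Rpl22 and Rpl22l1 encode interchangeable large-subunit proteins, and in mice Rpl22 is known to hold down Rpl22l1 expression. Rpl22 had 86.2 to 126 CPM in FSK (median 117), and 113, 84.6, 101 and 90.4 CPM in DMSO 1 to 4, so that the groups overlapped (0.19 ± 0.12, adjusted p = 0.37). As a description, the ratio of Rpl22l1 to Rpl22 CPM was 0.398 ± 0.073 in FSK (SD, n = 6, 0.315 to 0.530), 0.244 ± 0.060 in DHPG (n = 6, 0.157 to 0.331) and 0.155 ± 0.053 in DMSO (n = 4, 0.125 to 0.235). The FSK and DMSO ratios did not overlap. The ratio is of CPM and not per length of transcript, so it gives no ratio of molecules.

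Rpsa lay on the other side. It had 271 to 410 CPM in FSK libraries (median 376), and 561, 461, 469 and 444 CPM in DMSO 1 to 4. All 6 FSK libraries lay below all 4 DMSO libraries, although the log2 fold change of -0.44 ± 0.13 did not pass the limit (edgeR adjusted p = 0.0996). Rpl22l1 and Rpsa were the 2 members whose FSK and DMSO libraries did not overlap, where 3.62% of all features were higher and 4.36% lower without overlap. With the set as a term Rpsa passed (-0.49 ± 0.12, adjusted p = 0.031), and so did Rpl13 of the large subunit (-0.39 ± 0.11, adjusted p = 0.036). In that fit 1 member rose and 2 fell, while 3.45% of all features were higher and 5.99% lower. Rpl13 had 158 to 271 CPM in FSK (median 216), and 288, 273, 265 and 202 CPM in DMSO 1 to 4, and these overlapped. Without FSK 4 and FSK 5, with the set term kept, neither Rpsa (-0.37, adjusted p = 0.17) nor Rpl13 was called. Calls over all features also fell there, to 45 higher and 11 lower, from 593 and 1029 with all libraries.

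Further members of large change did not pass. Rps2, at the mRNA entry of the small subunit, had 62.5 to 134 CPM in FSK (median 109) and 236, 379, 101 and 77.7 CPM in DMSO 1 to 4. Its log2 fold change of -0.91 ± 0.37 (adjusted p = 0.18) rested on the 2 highest DMSO libraries, and without DMSO 2 it was -0.39. It was -0.43 with the counts of its pseudogene rows added. Rpl10, a late-joining protein of the large subunit, was at 0.44 ± 0.17 (adjusted p = 0.16), or 0.09 with pseudogene counts added, and Rpl34 at 0.45 ± 0.21 (adjusted p = 0.24). Rps6 was at 0.01 ± 0.15, with a 95% interval of -0.28 to 0.30.

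FSK 6 stood apart for a few members. Rplp1 had 344, 342, 347, 218, 188 and 98.3 CPM in FSK 1 to 6, and Rplp2 had 115, 112, 122, 81.3, 69.6 and 38.3 CPM. Rpl36 had 71.2, 67.2, 75.8, 52.7, 45.2 and 12.9 CPM in the same libraries, and 57.1 to 81.7 CPM in DMSO. In all 3 genes FSK 6 was the lowest of the 16 libraries. None of the 3 was called between FSK and DMSO, with log2 fold changes of -0.36 ± 0.26, -0.31 ± 0.24 and -0.40 ± 0.31.

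**Figure D3:**
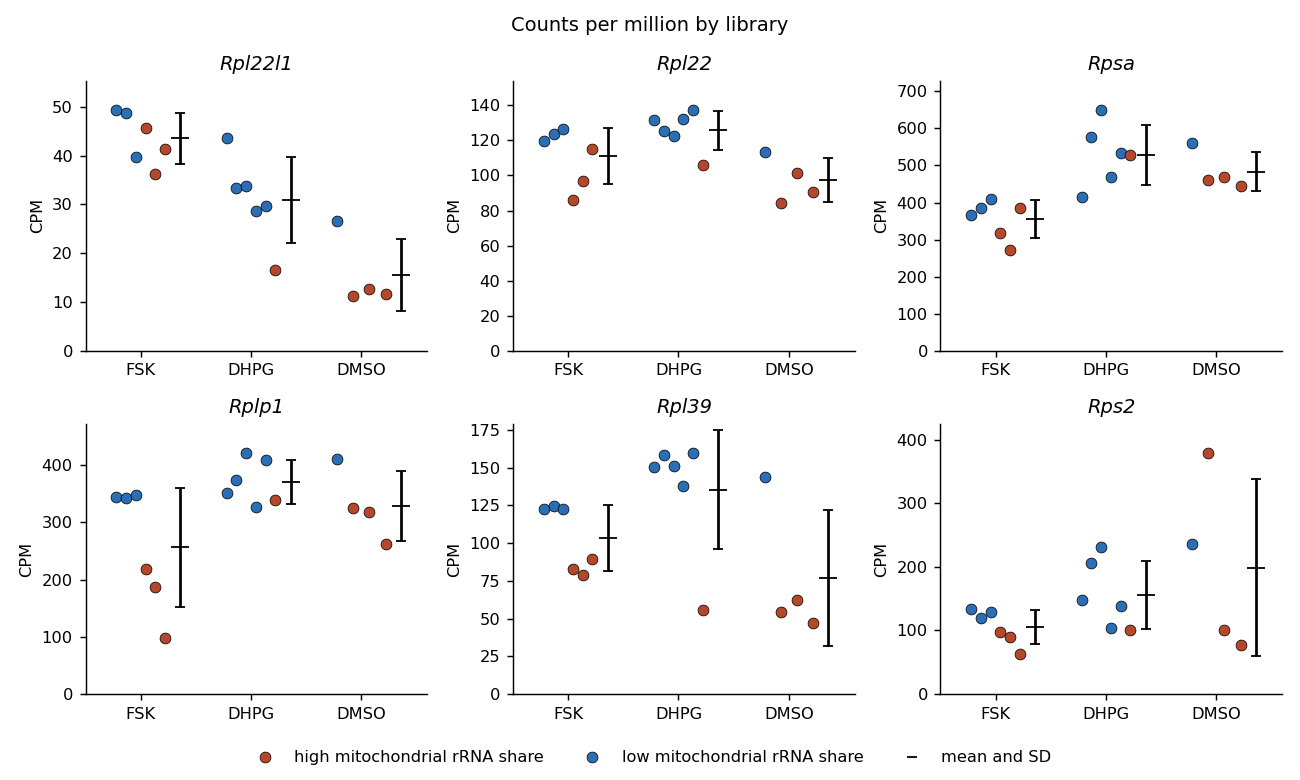
CPM of 6 members in each library, by treatment and coloured by mitochondrial rRNA set, with mean and SD. In all 6 FSK libraries Rpl22l1 is above and Rpsa below the 4 DMSO values, Rpl39 divides by set, Rplp1 is lowest in FSK 6 and Rps2 highest in DMSO 2.

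With DHPG against DMSO no member was called (0 higher and 0 lower by edgeR, and 0 and 0 by DESeq2), where 0.00582% of all features were higher and 0% lower by edgeR and 0.0408% and 0% by DESeq2. At an unadjusted p under 0.05 there were 20 higher and 0 lower members, against 4.35% and 8.05% of all features. The values lay mainly on the positive side, with a median log2 fold change of 0.31 over the members and -0.01 over all features, and 79 of 83 positive. DHPG has 5 of its 6 libraries in the low set and DMSO 1 of its 4. With the set as a term the median was 0.02, with 55 of 83 positive and again 0 called, against 0% of all features called in either direction. The DHPG and FSK comparisons share the 4 DMSO libraries, so their values are not independent.

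Rpl22l1 again had the largest value and the smallest p with DHPG. It had 16.6 to 43.6 CPM in DHPG libraries (median 31.6), against 26.6, 11.2, 12.6 and 11.6 CPM in DMSO 1 to 4. The groups overlapped, since DHPG 6, the DHPG library of the high set, had 16.6 CPM. The log2 fold change was 1.003 ± 0.26 (edgeR adjusted p = 0.40) and with the set term 0.67 ± 0.20 (edgeR adjusted p = 0.9997). Rpl39 (0.82 ± 0.32), Rps27a (0.61 ± 0.25) and Rpl17 (0.60 ± 0.29) came next, all with adjusted p = 0.40, and all are members lower in the high set. Rpl3, at the peptidyl transferase centre, was at 0.41 ± 0.13, Rps12 at 0.47 ± 0.15 and Rpl22 at 0.37 ± 0.12, and none of these passed. Rpsa was at 0.13 ± 0.14, with a 95% interval of -0.14 to 0.40. The number of members whose DHPG and DMSO libraries did not overlap was 0, against 0.641% of all features higher and 0.67% lower.

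Between FSK and DHPG directly, 8 of 83 members were lower in FSK and 0 higher (edgeR), where 14.4% of all features were lower and 16.3% higher, so the members' 8 lie below the share of all features. At an unadjusted p under 0.05 there were 24 lower and 1 higher, against 21.1% and 24.1% of all features. DESeq2 gave 11 lower and 0 higher, against 17.2% and 19.8%, so that its 11 also lie below the share of all features. The median log2 fold change was -0.26 over the members and 0.03 over all features. FSK has FSK 4 to 6 in the high set and DHPG only DHPG 6. With the set as a term the median was -0.12 over the members, with 63 of 83 negative, and 0.02 over all features. Rpsa fell most clearly: 271 to 410 CPM in FSK (median 376) and 416 to 650 CPM in DHPG (median 531), with no overlap, a log2 fold change of -0.57 ± 0.12 and adjusted p = 0.016. Rps14, at 147 to 230 CPM in FSK (median 198) and 233 to 293 CPM in DHPG (median 245), and Rps19bp1, at 9.95 to 14.1 CPM and 14.4 to 16.5 CPM, did not overlap either. Their log2 fold changes were -0.39 ± 0.13 (adjusted p = 0.032) and -0.33 ± 0.11 (adjusted p = 0.036). These 3 of 83 were the members without overlap, with 0 in the other direction, against 4.03% of all features lower and 3.21% higher.

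The other members called were the stalk protein Rplp0 (-0.46 ± 0.16), Rps7 (-0.44 ± 0.16), Rpl13 (-0.39 ± 0.14), Rpl19 (-0.37 ± 0.14) and Rpl15 (-0.25 ± 0.080). With the set as a term 6 members were lower and 1 higher, the last being Rpl22l1 (0.76 ± 0.17, edgeR adjusted p = 0.018), with 11.9% of all features lower and 11.4% higher. Rpsa kept -0.51 ± 0.11 (adjusted p = 0.018) in that fit. These calls depended on few libraries, as did those over all features. Without FSK 4 and FSK 5 the members' count was 0, and of all features 3 were higher and 0 lower. Rpsa was then at -0.45 (edgeR adjusted p = 0.0899). In the low set alone, 3 FSK against 5 DHPG libraries, the members' count was also 0. Of all features 7 were higher and 2 lower there, with Rpsa at -0.44 (edgeR adjusted p = 0.0956). Both counts of 0 thus go with few calls in the whole table.

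**Figure D4:**
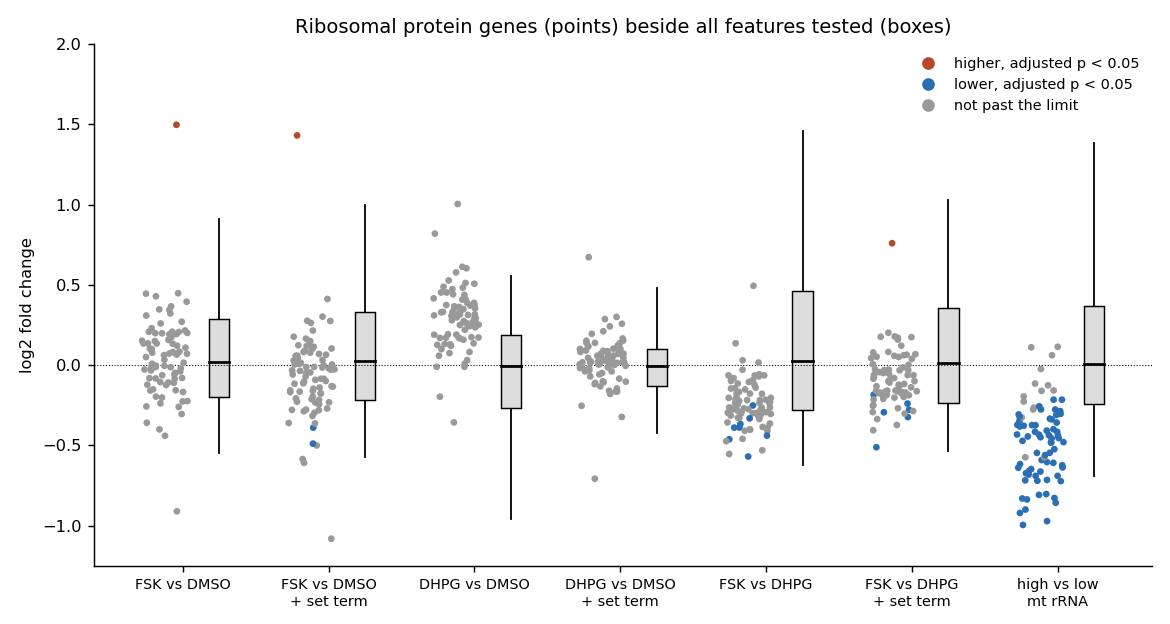
Log2 fold changes of the 83 tested members (points) in each comparison, beside boxes for all 17173 features (line: median; box: 25th to 75th percentile; whiskers: 5th to 95th). The members' median lies at 0.31 for DHPG against DMSO and at 0.02 once the library set is in the model, and at -0.44 between the sets.

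Whether the FSK effect differed between the sets was tested with an interaction term, the FSK change in the high set minus that in the low set. The test rests on DMSO 1, the single DMSO library of the low set. Of the members 2 were higher and 0 lower (edgeR), where 0.0932% of all features were higher and 0.582% lower, and at an unadjusted p under 0.05 there were 16 and 10, against 7.11% and 8.26% of all features. The members called were Rpl39 (0.86 ± 0.14, adjusted p = 0.015) and Rpl17, a protein near the exit tunnel (0.97 ± 0.19, adjusted p = 0.037). Rpl39 had 83.1, 78.7 and 89.2 CPM in FSK and 54.0, 62.5 and 47.2 CPM in DMSO libraries of the high set, against 122, 125 and 123 CPM in FSK and 144 CPM in DMSO of the low set. Rpl17 had 92.0, 121 and 108 CPM in FSK and 70.1, 96.7 and 74.3 CPM in DMSO libraries of the high set, against 135, 135 and 139 CPM in FSK and 185 CPM in DMSO of the low set. In the high set 3 of 3 FSK libraries exceeded all DMSO values for Rpl39 and 2 of 3 did for Rpl17, and in the low set both were below DMSO 1 in 3 of 3. Rpl22l1 had a difference of 0.93 ± 0.20 (adjusted p = 0.052). Leaving out any one of FSK 1, FSK 2, FSK 3 or DHPG 6 left 0 members called, and leaving out FSK 6 gave 6.

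**Figure D5:**
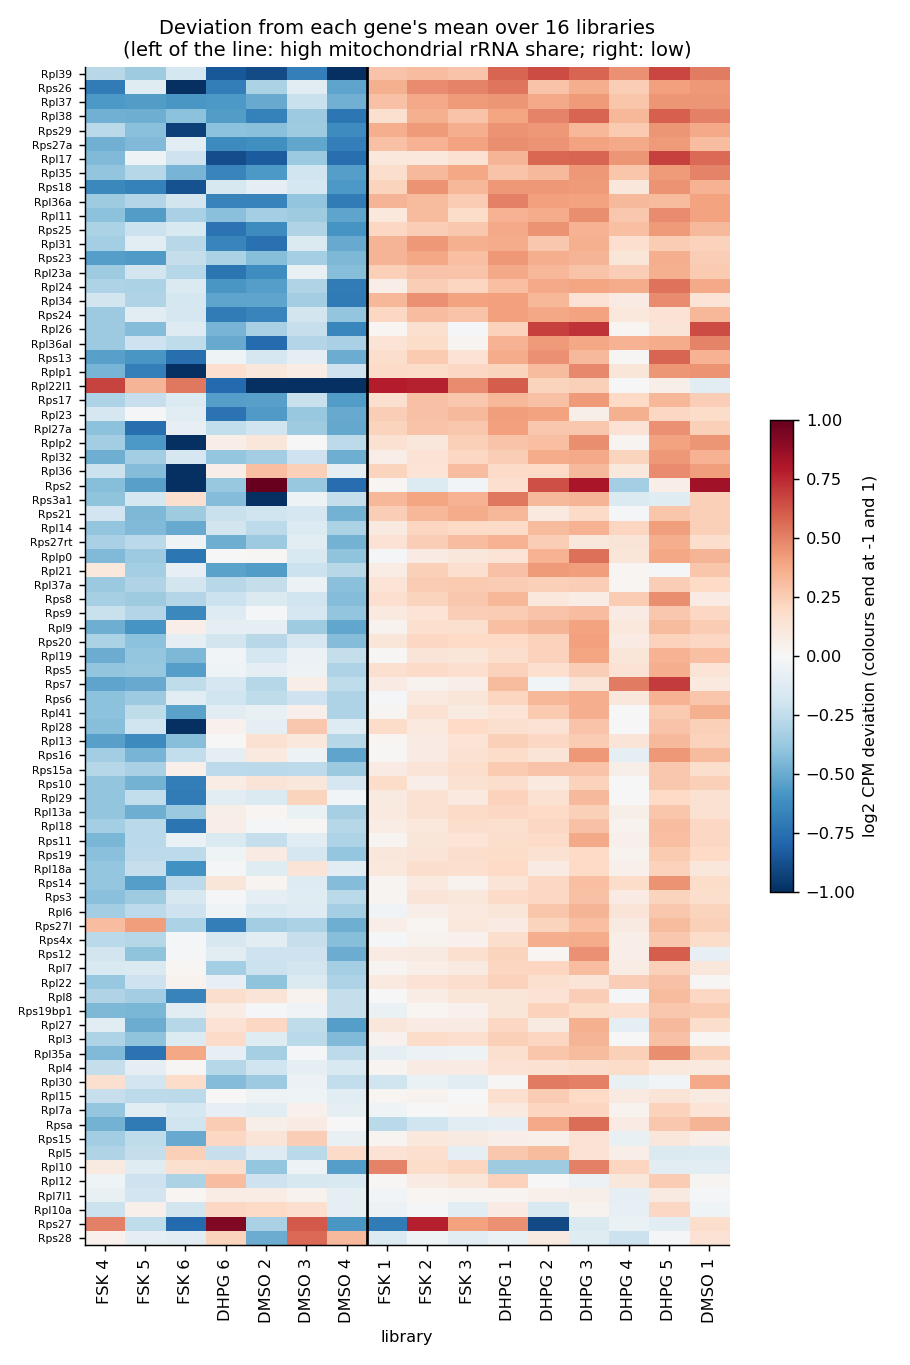
Log2 CPM of each tested member as the deviation from its mean over 16 libraries, with libraries of the high set left of the line and of the low set right of it; colours end at -1 and 1. Most rows change colour at the line, while Rpl22l1 is high in all FSK libraries and low in DMSO 2 to 4 and DHPG 6.

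Genes that work with the ribosome were read beside the members in the same fits. The ribosome components Fau (-0.40 ± 0.096) and Rack1 were both lower in the high set. Elongation factors and other genes with TOP-type mRNAs were lower in 14 of 18 and higher in 0 (median -0.33), for example Tpt1 (-0.50 ± 0.088) and Eef1b2 (-0.45 ± 0.080). Of 29 ribosome biogenesis factors 9 were lower and 0 higher (median -0.18), led by the H/ACA snoRNP proteins Nhp2 (-0.59 ± 0.088) and Nop10 (-0.60 ± 0.12). Of 15 regulators of TOP mRNAs and ribosome signalling 4 were lower and 1 higher (median 0.01), the translational repressor Eif4ebp1 at -1.04 ± 0.12 and the TOP-binding protein Larp1 at 0.37 ± 0.072.

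Mitochondrial gene lists were read in the same way. Of 78 genes for mitochondrial ribosomal proteins, encoded in the nucleus, 56 were lower and 1 higher in the high set (median -0.33), and of 93 tested respiratory chain subunits 76 were lower and 1 higher (median -0.46). The members' 68 of 83 and median of -0.44 stand beside these, and no difference between the lists was tested. With FSK against DMSO and the set as a term, 19 of the 78 mitochondrial ribosomal protein genes were lower and 0 higher. Of the 93 respiratory chain subunits 18 were lower and 0 higher. Beside these, 2 of the 83 members were lower and 1 higher. The shares of all features in that fit were 5.99% lower and 3.45% higher. In the same fit 4 biogenesis factors rose and 2 fell, among them Taf1d, a subunit of the RNA polymerase I factor SL1 (0.56 ± 0.14, adjusted p = 0.027), and Nhp2 (-0.44 ± 0.10, adjusted p = 0.022).

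Several members carry counts that could be shared with processed pseudogenes. The table holds 287 pseudogene rows matching the name rule, and their counts came to 13.1 to 16.7% of the members' counts per library, with overlapping ranges in the high set (13.1 to 16.7%) and the low set (13.5 to 16.3%). For Rps12 the pseudogene rows held 11.6 times the counts of the gene, for Rpl10 10.5 times, for Rps2 3.95 times, for Rpl3 1.13 times and for Rpl34 0.99 times. The values of these genes, and of others with many pseudogene counts, are uncertain. For some genes this ratio differed between the sets. It was 0.008 in the high and 0.168 in the low set for Rpl10a, 0.126 and 0.036 for Rpl15, and 0.218 and 0.110 for Rps26. For Rpl17 it was 0.518 and 0.502. Rps27 had only 2684 counts in all libraries together, and the rodent retrogene Rps27rt, also a member, had 85.8 to 154 CPM. Rpl22l1 and Rpl37 have no pseudogene row in the table. Adding pseudogene counts to their members left Rpl22l1 as the 1 member called with FSK against DMSO and gave 71 lower members between the sets, 67 of them among the 68. Rpl15 was then no longer called between the sets (-0.10, edgeR adjusted p = 0.22). Rps26 moved to -0.81 and stayed called. For FSK against DHPG the same addition gave 11 members in place of 8, where 2808 of all features were higher and 2488 lower. The members added were Rpl10a (-0.24), Rpl3 (-0.37) and Rps2 (-0.46, edgeR adjusted p = 0.017). Of 40 pseudogene rows tested, 22 were lower and 0 higher in the high set (edgeR; 22 and 0 at an unadjusted p under 0.05). Rps6-ps4 shows how a pseudogene row can behave: it had 641, 541 and 745 counts in DMSO 3, DMSO 4 and FSK 5 and 0 in the other 13 libraries, while Rps6 had 5725 to 10481 counts in all 16. In the authors' deposited table for DHPG this row has a log2 fold change of -24.7 and an adjusted p of 1.02e-11.

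Paralogs known from other tissues were nearly absent. Rpl10l, a testis retrogene that stands in for X-linked Rpl10 in male germ cells, had 1 count in all 16 libraries. Rpl39l, the testis paralog of Rpl39, had 11.1 estimated counts, and Rpl3l, the muscle paralog of Rpl3, had 78. These 3 members were left out by the filter on low counts. Rpl36al, the paralog of Rpl36a, was expressed in all libraries, and both were lower in the high set (-0.66 ± 0.10 and -0.80 ± 0.087). Rps27l, a p53-inducible paralog of Rps27, was not called between the sets (-0.33 ± 0.15, adjusted p = 0.11), with 30.8 and 33.3 CPM in FSK 4 and FSK 5 against 15.4 to 19.97 CPM in the other 5 libraries of the high set.

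The authors' deposited tables of each treatment against DMSO give an adjusted p for 83 members. In the authors' deposited table for FSK, Rpl22l1 was higher (log2 fold change 1.48, adjusted p = 1.08e-05) and Rpsa lower (-0.45, adjusted p = 0.049), with a median of 0.05 over the members. In the authors' deposited table for DHPG, Rpl22l1 (1.01, adjusted p = 0.047) and Rpl3 (0.42, adjusted p = 0.040) were higher and 0 members lower, with a median of 0.31.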

How the data were processed

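Total RNA of 16 libraries was analysed, and the 16 miRNA samples of the series were not used. Per the labels' protocols, RNA was extracted with Trizol and chloroform and made into libraries with a TruSeq Stranded Total RNA kit. Salmon, DESeq and the build GRCm38 are named in the submitters' processing notes, without versions. The authors deposited estimated counts per gene (expected counts, 26.61% of values not whole), which were rounded. Their comparison tables hold, per the file headers, log2 fold changes, p-values and a mean of normalized counts, the last a signal value that is not used. Control columns were matched to DMSO samples by number, and recomputed log2 fold changes correlated with the authors' at 0.98376 or higher.

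Features passing filterByExpr with a minimum count of 10 (17173) were tested with the edgeR 4.0.16 quasi-likelihood test, robust, in R 4.3.3 on TMM-scaled counts. The 3 treatments shared 1 fit, the high and low sets were compared with treatment as a term, and p-values were Benjamini-Hochberg adjusted over all features at 0.05. CPM is TMM-scaled, log2 values use a prior count of 2, errors of fold changes are SE, and 95% intervals are ± 1.96 SE. DESeq2 1.42.0 was an alternative. Scripts were tested on simulated data. Transcript lengths were not used, so the order of members by CPM and the ratio of Rpl22l1 to Rpl22 are not per length. Totals of 20677117 to 59958600 counts give each tested member at least 2684 counts in all libraries together.

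Replicate numbers were checked for pairing: among 14 pairs of libraries with the same number, the deviations from group means correlated above 0.1 in 3, so numbers were not treated as pairs. No replicate pair agreed within sampling noise (lowest chi-square per degree of freedom 5.85). The members, gene lists, cell markers, library sets and tests were chosen with earlier results of these data known. Named genes are, per comparison, the 4 largest changes in each direction and the 4 smallest p, the 8 most abundant, the 4 most and 4 least variable members, and a fixed group, plus 2 genes of each other list. Rps29, Rpl13, Rps7, Rps27rt and Rps6-ps4 and the low values of FSK 6 were singled out after their values were seen. One gene of the list of other ribosome components is not reported here.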

Additional observations from a re-analysis of the deposited data

Results flagged for a closer look

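Among 120 groups of 4 or 6 libraries looked at for named members and for the members' summed share, 18 held a library far from the rest, by a gap to its nearest neighbour over the whole range above Dixon's 95% critical value. Chance would flag about 1 in 20 independent groups. Some members were named for their difference between the sets, and the groups reuse the same libraries. That rate is therefore no measure for these 18 flagged groups. Of these, 12 were DHPG 6, the DHPG library of the high mitochondrial rRNA set, each time the lowest of 6: the gap was 0.79 for Rpl39, 0.897 for Rps27a, 0.676 for Rpl17, 0.699 for Rps27l, 0.688 for Rps26, 0.786 for Rpl37, 0.694 for Rpl38, 0.71 for Rpl11, 0.815 for Rpl4, 0.781 for Rpl36a, 0.887 for Rpl36al and 0.737 for the members' percentage of non-mitochondrial counts. In 5 groups it was DMSO 1, the DMSO library of the low set and each time the highest of 4, with gaps of 0.904 for Rpl22l1, 0.841 for Rpl39, 0.873 for Rps27a, 0.845 for Rpl11 and 0.856 for Rps6. Rpl7l1 in DHPG 4 was the remaining group (0.668, its lowest value of 6). DHPG 6 and DMSO 1 are the lone libraries of their treatment in their set, so library, set and depth cannot be told apart there.

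An interaction term in edgeR, the FSK change in the high set minus that in the low set, passed the limit for Rpl17 (0.967 on the log2 scale) and Rpl39 (0.861). The low set has 1 DMSO library, DMSO 1, whose own spread is not known and which stood apart among the DMSO libraries for Rpl39. The term could not be fitted without it, and 0 members were called without FSK 1, FSK 2, FSK 3 or DHPG 6, so these values are a description of these libraries and no difference in the FSK effect is drawn from them.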

How the results depend on the processing

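The named members called by edgeR, and the 4 of smallest p in each comparison, kept their sign under each alternative that gave a value. The members' median with FSK against DMSO, 0.06, did change sign: it was -0.059 with the library set term, -0.057 with that term and without FSK 4 and FSK 5, -0.065 in the high set only, and it was also below 0 without DMSO 4 (-0.038), without FSK 2 and without FSK 3. The count of members lower in the high set stayed between 48 (replicate block) and 78 (library totals), with 0 higher under each setting, and its median between -0.42 and -0.48 except with library totals only (-0.65), where the median of all features was itself -0.20. With library totals the splits of all features were 1935 higher and 5883 lower between the sets, 49 and 13 with FSK against DMSO and 1759 and 751 with FSK against DHPG. The count of members called with FSK against DMSO was 2 with the DESeq2 Wald test, 3 with the library set term and 3 with log2 mitochondrial rRNA share as a term. Of all features 657 were higher and 619 lower with the Wald test, 593 and 1029 with the set term, and 466 and 857 with the share term. The count for FSK against DHPG was 1 with library totals, 5 with mitochondrial features out, 1 with no filter, 0 with the log2 mitochondrial rRNA share term, 0 without FSK 4 and FSK 5, 2 without them and with the set term, and 0 in the low set only. The calls over all features for FSK against DHPG moved as well. They were 2841 higher and 2314 lower with mitochondrial features out, and 1675 and 1230 with no filter. With the share term they were 13 and 5, and without FSK 4 and FSK 5 they were 3 and 0. Without those 2 and with the set term they were 801 and 750, and in the low set only 7 and 2. The DHPG median of 0.31 was 0.0249 with the set term and 0.0360 with that term and without FSK 4 and FSK 5. The interaction count of 2 was 7 without FSK 4 and FSK 5. The cause of these changes was not tested.

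Leaving out 1 library at a time gave 0 to 1 members called with FSK against DMSO (0 without DMSO 2, 3 or 4; median -0.04 to 0.16), 0 to 0 with DHPG (median 0.22 to 0.44), 1 to 15 with FSK against DHPG (1 without DHPG 3, DHPG 5, FSK 4 or FSK 5, 2 without DHPG 2, 3 without FSK 6, and 13, 14 and 15 without DHPG 6, FSK 2 and FSK 3; median -0.33 to -0.21), 60 to 70 between the sets (median -0.48 to -0.42) and 0 to 6 for the interaction. Rpsa was called between FSK and DHPG in 16 of 16 such fits. Over all features, FSK against DHPG gave 1116 higher and 808 lower without DHPG 3, and 974 and 830 without FSK 5. It gave 3089 and 2709 without FSK 3, and 2745 and 2322 without FSK 6. FSK against DMSO gave 21 and 10 without DMSO 2, 11 and 1 without DMSO 3, and 33 and 14 without DMSO 4. Between the sets the calls were 2448 and 1638 without DMSO 1, and 2793 and 2830 without DMSO 2. The interaction could not be fitted without DMSO 1.

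With the replicate number as a replicate block the counts were 1 for FSK against DMSO, 0 for DHPG and 18 for FSK against DHPG (17 lower, 1 higher), and the medians 0.11, 0.38 and -0.27. Of all features 290 were higher and 241 lower for FSK against DMSO, 0 and 0 for DHPG, and 1990 and 2182 for FSK against DHPG. The numbers did not pair the libraries: 3 of 14 same-number pairs correlated above 0.1, and 1 of 16 libraries correlated best with its own number. Alternatives with pseudogene counts added, with the set term without FSK 4 and FSK 5, and those of the interaction were chosen after seeing the data. Low counts limit what can be read for the 3 members under the filter and for Rps27. The pooled spread of the members' mean log2 level was larger within treatment (SD 0.244) than within treatment and set (0.079). That spread limits treatment contrasts fitted without the set.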
